A study of Mus musculus with 12 samples.

Results

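Lung RNA of mice at 6 months of age was compared with that of mice at 3 months, across all genes, in 6 of the 12 libraries of a study of lung ageing. These libraries were chosen by their labelled age alone, while the gene lists described below were written with earlier results of these data known. Both groups were male wild-type mice of strain C57Bl/6J with no treatment named, and there were 3 mice of 3 months, 3 mice of 6 months and 1 lung library for each mouse. The other 6 libraries came from mice of 12 and 24 months. Per the labels, minced lung was kept in RNAlater, RNA was extracted with the RNeasy kit, and poly(A) RNA was made into libraries with the NEBNext Ultra kit. The question was how the lung of a young adult mouse differs from that of a mouse at the next age sampled.

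By the younger of these ages the alveoli of the mouse are built, and the adult lung turns over slowly. Its gas exchange surface consists of type 1 and type 2 alveolar epithelial cells laid against a dense bed of capillaries, with ciliated and secretory cells in the airways. Plasma cells secrete antibodies in mucosal tissues such as the lung, and synthesis of collagen and elastin is strongest in the growing lung.

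Depth was 16.5 to 20.9 M reads on genes in the younger mice and 15.3 to 19.6 M in the older. Markers of lung were abundant in all 6, with Sftpc of type 2 cells at 20240 to 26560 FPKM (reads scaled by gene length and library total, the only scale used here to compare genes), Scgb1a1 of club cells at 53850 to 80560 FPKM and Ager of type 1 cells at 1314 to 1705 FPKM. The heart gene Myh6 was at 22.9 to 66.4 FPKM. Tg, the thyroid hormone precursor, was at 0.249 to 0.36 FPKM, and Ptcra, a gene of developing thymocytes, had 1 read in all 6 libraries. One 3-month library stood apart. Log2 levels of 3-month mouse 1 correlated with those of 3-month mice 2 and 3 at r = 0.983 and 0.982 across genes, against 0.991 between mice 2 and 3, and the 6-month libraries correlated with each other at 0.988 to 0.989. The mean gene length, weighted by reads, was 3428 bp in 3-month mouse 1, against 3867 and 3794 bp in mice 2 and 3 and 3598 to 3629 bp at 6 months.

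One gene passed the test. Of 15691 genes tested with edgeR (quasi-likelihood test, Benjamini-Hochberg adjusted p under 0.05), only Nr4a1 was called, and it rose with age. That is 0.00637% of the genes tested, and 0 genes fell. At an unadjusted p under 0.05 there were 885 genes (5.64%), of which 489 had higher values at 6 months (3.12%) and 396 lower values (2.52%). In 1725 genes (11.0%) the 3 mice of one age did not overlap in level with the 3 mice of the other, with 890 higher at 6 months (5.67%) and 835 lower (5.32%). Under random order, 3 against 3 mice separate with a probability of 0.1, and an unadjusted p falls under 0.05 with a probability of 0.05. Both shares were near these values. They are the background of the list counts given below. Fold changes were small for most genes. Across all genes tested the median log2 fold change, 6 over 3 months, was -0.006, the 5th to 95th percentiles were -0.38 to 0.37, and 141 genes differed by more than 1 on the log2 scale. DESeq2 called 23 of 16740 genes (0.137%), 19 of them higher. Levels of all genes other than Nr4a1 are therefore given as descriptions that did not pass the edgeR test. Levels are CPM, reads scaled to a common library total, and are given in the order of mouse 1, 2 and 3 of each age.

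**Figure D1:**
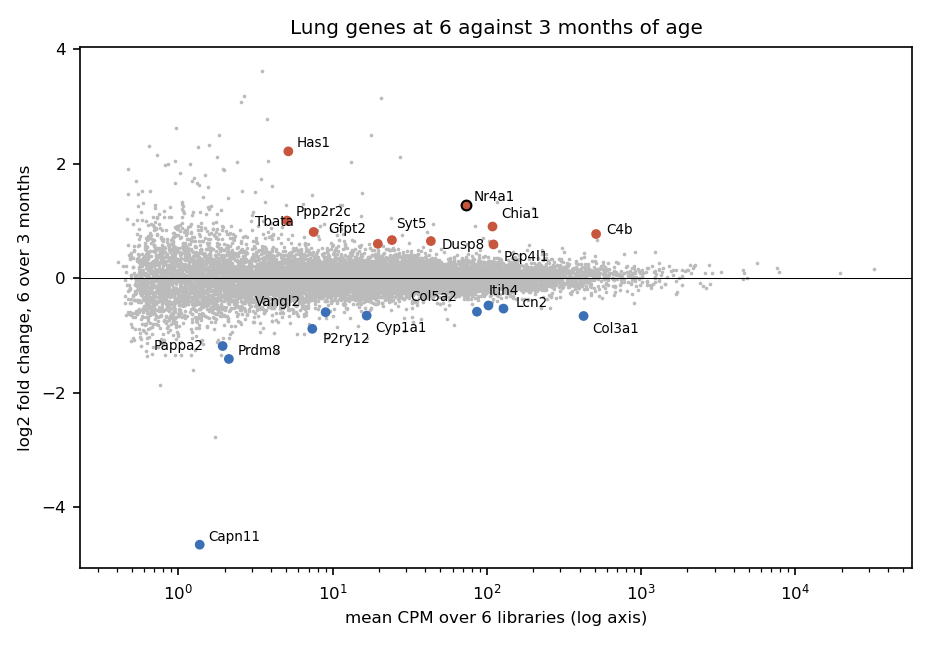
Each point is 1 of 15691 genes, with its mean CPM over the 6 libraries on a log axis and its log2 fold change, 6 over 3 months. Red and blue points are the 10 genes each way with the smallest p among those whose mice did not overlap, and the black ring marks Nr4a1, the 1 gene past the adjusted threshold.

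Nr4a1, an orphan nuclear receptor of the immediate early class that cells switch on within minutes of a stimulus, was at 44.3, 51.0 and 32.1 CPM in the 3-month mice and 118.6, 99.8 and 91.3 CPM in the 6-month mice. All 3 older mice stood above all 3 younger mice. The gene (chr15:101266846-101274792, plus strand, mm10) rose from 42.5 ± 9.58 to 103.2 ± 14.0 CPM (mean ± SD, n = 3), a log2 fold change of 1.28 ± 0.16 (SE), with an edgeR adjusted p of 0.0441. The call was lost without 3-month mouse 1 (adjusted p = 0.0762), without 6-month mouse 2 (adjusted p = 0.326), in a fit on all 12 libraries (adjusted p = 0.301), on the 9 libraries up to 12 months (adjusted p = 0.208), with a correction for GC content and gene length (adjusted p = 0.137), with limma voom (adjusted p = 0.0574) and with a minimum mean of 1 CPM (adjusted p = 0.0558). Its log2 fold change lay between 1.12 and 1.44 with each mouse left out in turn.

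Most other immediate early genes had fold changes above 0. The list of 22 tested genes, Nr4a1 included, which encode transcription factors and short-lived regulators of growth and stress responses, had a median log2 fold change of 0.48, and 19 members were above 0. At an unadjusted p under 0.05 there were 13 higher and 0 lower members, and in 8 the mice of both ages did not overlap, all higher at 6 months. The only call was Nr4a1. The summed level of the list was 2563, 2821 and 2196 CPM at 3 months and 3068, 3553 and 3072 CPM at 6 months, so that each older mouse was above each younger mouse. Egr2, a zinc finger factor, was at 4.98, 7.56 and 5.53 CPM and then at 10.9, 14.6 and 9.48 CPM (log2 0.95 ± 0.20, adjusted p = 0.329). Cyr61, a secreted matrix protein induced by serum, was at 147.6, 177 and 129.8 CPM and then at 244, 221.7 and 213.9 CPM (log2 0.58 ± 0.13, adjusted p = 0.339). Neither gene overlapped between the ages. Klf4, a Krüppel-like factor of epithelium and endothelium, was at 176.9, 202.7 and 190.3 CPM and then at 239.2, 262.7 and 299.3 CPM (log2 0.49 ± 0.12, adjusted p = 0.438). Fosb and Fos, partners in the AP-1 transcription factor, were more scattered. Fosb was at 4.98, 7.15 and 3.65 CPM and then at 24.4, 58.8 and 6.85 CPM (log2 2.5 ± 0.91, adjusted p = 0.867), with 6-month mouse 3 inside the younger range. Fos was at 56.6, 108.1 and 50.4 CPM and then at 117.6, 158.9 and 72.2 CPM (log2 0.70 ± 0.43, adjusted p = 0.922). Nr4a2, a close relative of Nr4a1, was at 12.1, 13.6 and 12.0 CPM and then at 11.1, 10.6 and 13.2 CPM (log2 -0.11 ± 0.14, adjusted p = 0.933), which overlapped. Heat shock protein genes, another group with fast induction, had a median of 0.07 over 15 members, with 4 higher and 0 lower at an unadjusted p under 0.05. That median ranged from 0.01 without 3-month mouse 2 to 0.19 without 3-month mouse 1. The chaperone Hspa1b was at 16.1, 12.5 and 18.7 CPM and then at 16.3, 35.1 and 45.9 CPM, with 6-month mouse 1 at the younger level.

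**Figure D2:**
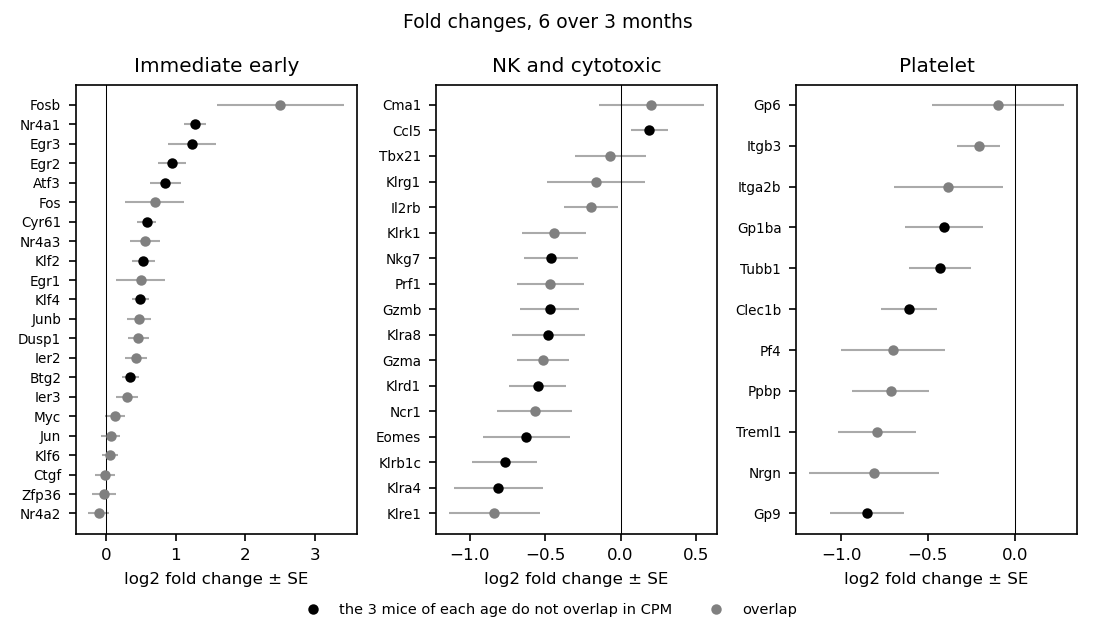
Log2 fold changes, 6 over 3 months, with SE bars for the tested members of 3 gene lists, sorted by value, where black points mark genes whose 3 mice of each age did not overlap. Of 22 immediate early genes 19 lie above 0, 15 of 17 NK and cytotoxic genes lie below 0, and 11 of 11 platelet genes lie below 0.

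Immediate early promoters are known for CArG boxes, bound by serum response factor, and for cAMP response elements (CRE, TGACGTCA), bound by CREB and its relatives. The RefSeq promoter windows (GRCm38.p6, 250 bases before to 50 bases after each gene start) were searched on both strands for each, and the elements did not overlap each other. Only full forms were searched, TGACGTCA for the CRE and CC, 6 bases of A or T, then GG for the CArG box. The 250 bases before the RefSeq start are shown for the 1 called gene and for 3 genes among those described that hold an element, with the element in capitals. They are Nr4a1 at chr15:101266596-101266845 on the plus strand, Egr2 at chr10:67537619-67537868 on the plus strand, Dusp8 at chr7:142095285-142095534 on the minus strand and Has1 at chr17:17855189-17855438 on the minus strand, each 5′ to 3′.
Nr4a1: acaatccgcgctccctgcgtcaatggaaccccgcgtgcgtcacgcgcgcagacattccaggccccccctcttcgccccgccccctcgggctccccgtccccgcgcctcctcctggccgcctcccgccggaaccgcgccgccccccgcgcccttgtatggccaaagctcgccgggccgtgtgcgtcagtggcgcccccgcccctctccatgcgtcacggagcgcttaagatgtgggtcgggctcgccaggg
Egr2: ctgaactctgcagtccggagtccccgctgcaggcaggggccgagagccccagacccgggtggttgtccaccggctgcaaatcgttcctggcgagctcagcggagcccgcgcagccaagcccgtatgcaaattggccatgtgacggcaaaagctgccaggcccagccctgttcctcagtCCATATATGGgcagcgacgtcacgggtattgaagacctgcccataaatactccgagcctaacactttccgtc
Dusp8: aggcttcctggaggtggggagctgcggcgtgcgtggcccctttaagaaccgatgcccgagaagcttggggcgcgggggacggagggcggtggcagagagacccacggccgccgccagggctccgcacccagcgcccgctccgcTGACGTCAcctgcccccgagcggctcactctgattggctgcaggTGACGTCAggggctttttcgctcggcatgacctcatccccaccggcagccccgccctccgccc
Has1: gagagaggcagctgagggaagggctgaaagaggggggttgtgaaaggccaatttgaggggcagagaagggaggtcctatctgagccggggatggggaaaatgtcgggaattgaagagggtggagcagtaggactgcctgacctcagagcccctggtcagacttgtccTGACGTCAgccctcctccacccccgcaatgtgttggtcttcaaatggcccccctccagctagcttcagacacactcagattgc
The Nr4a1 window held neither element in its full form, and partial sites, such as those with 1 mismatch, were not searched. Egr2 held a CArG box that begins 72 bases before the RefSeq start of the window shown, one of several starts, which lies inside the gene as the deposited table gives it (from 67535475 on the plus strand). Has1 held a CRE that begins 83 bases before the start. Dusp8 held a CRE at 107 and another at 63 bases before the RefSeq start used for its window, which lies inside the gene as the deposited table gives it (up to 142095843 on the minus strand). The full CRE was in 588 of 32851 windows (1.79%) and in 382 of 11314 tested genes with a window (3.38%), and the CArG box was in 535 windows (1.63%) and 180 of these genes (1.59%). Of 16 immediate early genes with a window, 2 held a CRE (Btg2 and Dusp1) and 2 a CArG box (Egr2 and Zfp36). Of the 10 genes described as higher by smallest p, Nr4a1 included, 8 had a window, 2 of them with a CRE and 0 with a CArG box. Of the 10 lower genes described, 9 had a window, 0 with a CRE and 1 with a CArG box (Cyp1a1, 32 bases before the start).

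The genes next to Nr4a1 in p are given among those of at least 1 CPM whose mice did not overlap, without V segments. Higher levels in all 3 mice of 6 months are therefore how these genes were chosen. Their adjusted p was 0.329 in each case. Chia1 (chr3:106113229-106132120), an acidic chitinase secreted by airway and alveolar epithelium that degrades inhaled chitin, was at 89.3, 58.7 and 80.1 CPM and then at 118.9, 149.8 and 156.8 CPM (log2 0.90 ± 0.16). C4b (chr17:34728380-34743882), the complement component that follows C1 in the classical pathway, was at 295.1, 395.8 and 443.1 CPM and then at 534.1, 692.3 and 706.3 CPM (log2 0.77 ± 0.16). It has a near-identical neighbour, C4a, to which few reads were assigned (1.84 CPM at 3 months), and how reads that match both were handled is not given in the labels. Has1 (chr17:17843328-17855188), a synthase of the matrix polymer hyaluronan, was at 2.01, 1.29 and 2.25 CPM and then at 5.59, 6.12 and 13.8 CPM (log2 2.21 ± 0.38). Gfpt2 (chr11:49794178-49838613), which makes the hexosamine precursor of such polymers, was at 15.7, 16.2 and 15.01 CPM and then at 21.8, 26.3 and 22.9 CPM (log2 0.60 ± 0.12). The spread within each age was narrow for Gfpt2 and wide for Has1, whose highest value was in 6-month mouse 3.

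Dusp8 (chr7:142079490-142095843), a phosphatase that turns off MAP kinases, was at 28.8, 36.6 and 36.1 CPM and then at 48.0, 58.0 and 52.8 CPM (log2 0.65 ± 0.13). Pcp4l1, a small relative of the calmodulin regulator Pcp4, was at 101.8, 75.6 and 87.1 CPM and then at 131.3, 136.1 and 130.3 CPM (log2 0.59 ± 0.12). Syt5, a synaptotagmin that binds calcium in vesicle release, was at 22.01, 15.2 and 19.1 CPM and then at 27.9, 30.1 and 31.2 CPM (log2 0.66 ± 0.14). For Pcp4l1 and Syt5 the older mice lay close together, and both genes were called when 3-month mouse 1 was left out (adjusted p = 0.0342 and 0.0474). Tbata had log2 0.81 ± 0.16 and levels of 9.38 to 9.89 CPM at 6 months, against 4.94 to 5.98 CPM at 3 months. Ppp2r2c, a regulatory subunit of protein phosphatase 2A, was at 2.44, 4.17 and 3.52 CPM and then at 6.10, 7.31 and 6.85 CPM (log2 1.00 ± 0.22). DESeq2 called 7 of these 10 higher genes, Nr4a1 included. Leaving out 3-month mouse 1 was one of the fits tried, not a reason to discard it.

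Among lower genes chosen by the same rule, the smallest p were those of a pair of fibrillar collagen genes. Col3a1 (chr1:45311538-45349706), the chain of type III collagen that forms the fine fibres of lung and vessel walls, was at 510.7, 590.6 and 457.3 CPM and then at 373.1, 329.9 and 282.4 CPM (log2 -0.66 ± 0.14, adjusted p = 0.329). Col5a2 (chr1:45374321-45503282), a chain of type V collagen that sets the diameter of collagen fibres, was at 96.2, 122 and 92.7 CPM and then at 73.3, 66.4 and 67.4 CPM (log2 -0.59 ± 0.13, adjusted p = 0.329). These genes lie side by side on chromosome 1, and the lack of overlap between the ages is how they were chosen. Lcn2 (chr2:32384633-32387797), an antibacterial protein of neutrophils and airway epithelium that binds iron carriers, was at 170.7, 134.6 and 149.9 CPM and then at 98.7, 106.8 and 109.1 CPM (log2 -0.53 ± 0.12, adjusted p = 0.339). Itih4, a secreted protein of the inhibitor heavy chain family, was at 115.1, 118.8 and 124.2 CPM and then at 80.6, 86.3 and 90.1 CPM (log2 -0.48 ± 0.11, adjusted p = 0.339). DESeq2 called these 4 of the 10 lower genes and not the remaining 6.

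Cyp1a1, the xenobiotic oxidase that the aryl hydrocarbon receptor induces, was at 18.6, 21.4 and 21.2 CPM and then at 10.7, 12.0 and 16.0 CPM (log2 -0.66 ± 0.16, adjusted p = 0.388). P2ry12, an ADP receptor of platelets and some macrophages, was at 8.61, 12.4 and 7.78 CPM and then at 4.63, 5.05 and 5.87 CPM (log2 -0.89 ± 0.20, adjusted p = 0.339). Vangl2, a planar cell polarity protein, was at 10.8, 11.6 and 10.2 CPM and then at 7.26, 7.07 and 7.21 CPM (log2 -0.60 ± 0.15, adjusted p = 0.406). The rest were low in reads. Prdm8, a histone methyltransferase family member, had log2 -1.41 ± 0.31, and Pappa2, a protease that frees insulin-like growth factors, log2 -1.19 ± 0.29. Capn11, a calpain known from testis, had 45, 17 and 81 reads at 3 months and 4, 0 and 1 reads at 6 months (log2 -4.65 ± 0.94, adjusted p = 0.388). Its younger mice ranged from 0.875 to 4.92 CPM among themselves. Capn11 passed the filter on low counts through the 3-month mice alone, so it was tested only because it was higher there.

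**Figure D3:**
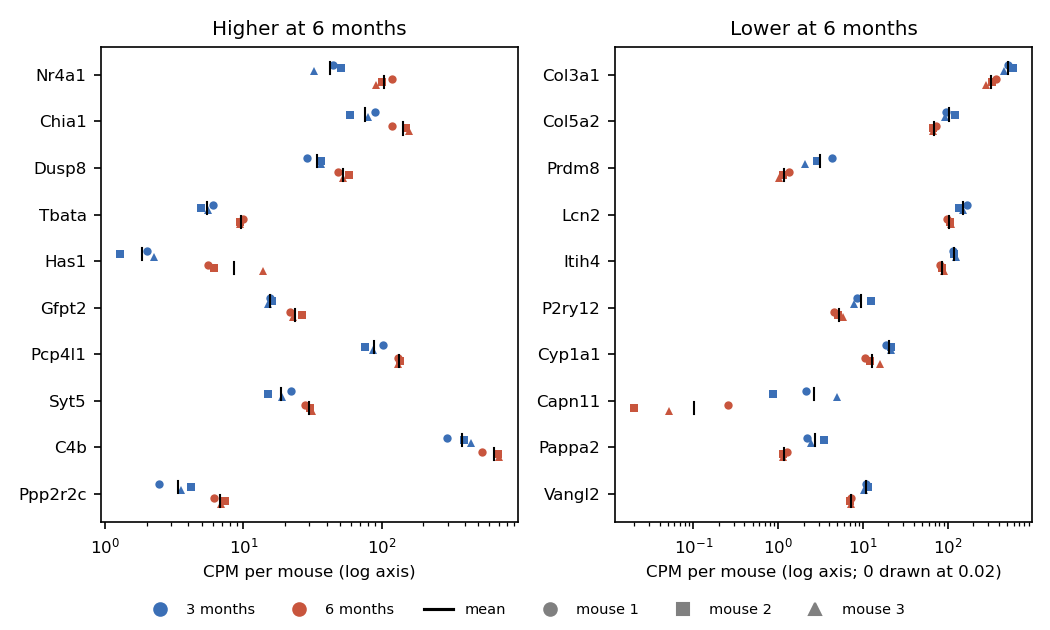
CPM of each mouse on a log axis for the 10 genes each way with the smallest p, with 3-month mice in blue, 6-month mice in red and a black bar at the mean of 3. In all 20 genes the ages do not overlap, which is how they were chosen, and the Capn11 value of 6-month mouse 2, which is 0, is drawn at 0.02.

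Genes of antibody-producing cells had higher levels at 6 months, and the highest median of the 66 gene lists was that of immunoglobulin V segments. In bulk lung RNA, more or fewer cells of a type and more or less RNA per cell cannot be told apart. Immunoglobulin V segments, the variable parts of antibodies, had a median log2 fold change of 1.12 over 64 tested segments, of 220 in the deposited table. Segments with few reads could pass the filter on low counts through the 6-month mice alone. Ighv5-17 did so, with 9, 8 and 4 reads at 3 months and 19, 35 and 26 at 6 months. The median and the counts of higher segments are thus set in part by the filter. At an unadjusted p under 0.05 there were 30 higher and 0 lower, and 26 segments did not overlap, all higher at 6 months. The summed level was 88.1, 76.0 and 83.0 CPM and then 333.2, 153.5 and 143 CPM, with 6-month mouse 1 well above the other two. Plasma cell and constant region genes had a median of 0.60 over 17 members, with 7 higher and 0 lower at an unadjusted p under 0.05 and 7 without overlap. Without 6-month mouse 1 the medians were 0.72 for V segments and 0.29 for plasma cell and constant region genes. Igj, the chain that joins IgA and IgM into polymers, was at 9.76, 7.305 and 13.7 CPM and then at 68.6, 30.2 and 34.1 CPM (log2 2.12 ± 0.41, adjusted p = 0.514). Igkc, the kappa constant region, was at 83.7, 56.3 and 60.5 CPM and then at 273.8, 109.8 and 119.9 CPM (log2 1.33 ± 0.43, adjusted p = 0.798). Igha, the constant region of IgA, was at 37.8, 26.5 and 24.7 CPM and then at 59.0, 60.2 and 37.4 CPM (log2 0.81 ± 0.21, adjusted p = 0.525), and 6-month mouse 3 overlapped the younger mice. Ighg1, of IgG1, was below 1 CPM in the younger mice and at 12.5, 1.72 and 4.997 CPM in the older ones (log2 3.62 ± 0.90, adjusted p = 0.659). Reads on V segments and on the constant regions of related classes share sequence, and their assignment is uncertain. Regulators of the plasma cell state, chosen after their values were seen, were nearer level, with Prdm1 at log2 -0.21, Xbp1 at 0.07 and Irf4 at 0.18. Of the 17 tested members of the list 16 were above 0, and Prdm1 was the 1 below.

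B cell and T cell genes had medians near 0. The 17 B cell genes had a median of -0.003 and the 22 T cell genes -0.07, with 0 members of either list at an unadjusted p under 0.05. These medians depended on single mice. With each mouse left out the B cell median ranged from -0.31 (without 6-month mouse 1) to 0.31 (without 6-month mouse 3), and was 0.26 without 3-month mouse 1. The T cell median ranged from -0.17 (without 3-month mouse 3) to 0.07 (without 3-month mouse 1). Variation between mice of one age was larger than between ages. The median B cell gene of 3-month mouse 3 was 0.52 below the 3-month mean on the log2 scale, and that of 6-month mouse 3 was 0.75 below it, while 6-month mouse 1 was 0.57 above it. Pax5, the factor that holds B cell identity, was at 8.57, 5.50 and 3.95 CPM and then at 6.94, 4.397 and 2.68 CPM. Cxcr5, the receptor that guides B cells into follicles, was at 11.6, 11.3 and 9.96 CPM and then at 19.2, 13.8 and 7.37 CPM. Cxcl13, the chemokine that Cxcr5 recognises, was at 3.40, 3.498 and 4.19 CPM and then at 9.51, 13.5 and 4.38 CPM (log2 1.30 ± 0.36, adjusted p = 0.577), again lowest in mouse 3 among the older mice.

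Genes of NK cells and cytotoxic granules had lower levels at 6 months. The list had a median of -0.47 over 17 tested members, and 9 were lower and 0 higher at an unadjusted p under 0.05. In 7 the mice did not overlap with lower values at 6 months, and in 1, the chemokine Ccl5, with higher values. The summed level was 111.9, 124.5 and 96.9 CPM and then 95.9, 95.4 and 78.9 CPM, with no overlap by a small margin. Klrb1c, the NK1.1 antigen, was at 5.60, 6.64 and 4.43 CPM and then at 3.85, 3.15 and 2.83 CPM (log2 -0.77 ± 0.22, adjusted p = 0.525). Klrd1, the CD94 receptor chain, was at 5.89, 6.996 and 5.65 CPM and then at 4.82, 4.28 and 3.61 CPM (log2 -0.55 ± 0.19, adjusted p = 0.707). Gzma, a granule protease, was at 21.1, 21.8 and 14.0 CPM and then at 13.2, 15.1 and 11.6 CPM (log2 -0.52 ± 0.17, adjusted p = 0.668), where 3-month mouse 3 was within the older range. Receptors of the Klra family are close copies of each other, and their reads are uncertain. The list also holds Cma1, which encodes a mast cell protease and had log2 0.20. T cell genes, which share part of the cytotoxic programme, had the median near 0 given above.

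Platelet, neutrophil and erythroid genes, which can reach lung RNA with the blood, had list medians below 0 as well. All 11 tested platelet genes had fold changes below 0, with a median of -0.61, 5 of them at an unadjusted p under 0.05 and 4 without overlap. The summed platelet level was 431.5, 451.8 and 258.9 CPM and then 227.6, 302.2 and 247.1 CPM, and 3-month mouse 3 lay within the older range. Gp9, a subunit of the receptor for von Willebrand factor, was at 16.2, 15.4 and 9.42 CPM and then at 6.17, 9.21 and 7.42 CPM (log2 -0.85 ± 0.21, adjusted p = 0.443). Ppbp, a platelet chemokine, was at 82.6, 80.9 and 42.4 CPM and then at 39.7, 42.3 and 43.4 CPM (log2 -0.72 ± 0.22, adjusted p = 0.668). Without 3-month mouse 3, Ppbp and Pf4, a second platelet chemokine, were called lower (log2 -0.96 with adjusted p = 0.00644, and log2 -0.97 with adjusted p = 0.0172). The mouse left out was the younger mouse with the lowest summed platelet level, so these calls are no separate support for a difference. The neutrophil list had a median of -0.46 over 16 members, with 4 lower and 0 higher at an unadjusted p under 0.05. Its summed level was 689.3, 640 and 506.3 CPM and then 597.5, 598 and 323.4 CPM. The ages overlapped, with 3-month mouse 3 below 6-month mice 1 and 2, and 6-month mouse 3 was the lowest by far. Mpo, the peroxidase of the primary granules, was at 3.45, 3.34 and 2.25 CPM and then at 0.771, 2.08 and 0.67 CPM (log2 -1.37 ± 0.38, adjusted p = 0.525). Camp, a cathelicidin peptide, was at 15.6, 13.8 and 8.38 CPM and then at 5.85, 8.73 and 3.81 CPM (log2 -1.05 ± 0.31, adjusted p = 0.659). The receptor genes Cxcr2 and Csf3r, chosen after their values were seen, had log2 -0.05 and -0.01. All 9 erythroid genes were below 0 with a median of -0.24, which was -0.02 without 3-month mouse 1, -0.15 without 6-month mouse 1, -0.41 without 3-month mouse 2 and -0.40 without 6-month mouse 3. Hba-a1, an alpha globin that shares its sequence with Hba-a2, was at 1286, 692.8 and 906.8 CPM and then at 678.9, 775.5 and 930.3 CPM (log2 -0.28 ± 0.21, adjusted p = 0.922), and the younger mouse 1 alone was above the rest. The part of blood content in the platelet and neutrophil levels was not tested.

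**Figure D4:**
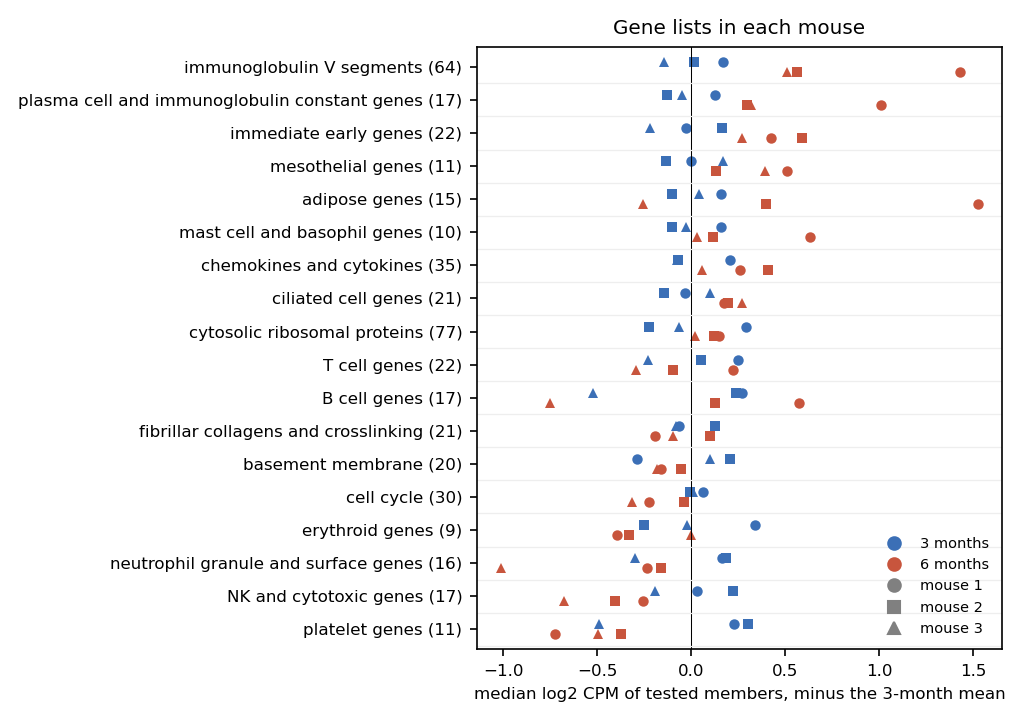
Median log2 CPM of the tested members of 18 gene lists in each mouse, as the difference from the 3-month mean, with the number of tested members in brackets. Immediate early genes and immunoglobulin V segments are higher in each 6-month mouse than in each 3-month mouse, NK genes lower, and in adipose genes the high value is that of 6-month mouse 1.

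Chemokine and cytokine genes had a median of 0.23 over 35 members, with 8 higher and 1 lower at an unadjusted p under 0.05. Cxcl2, which attracts neutrophils, was at 0.335, 0.257 and 0.182 CPM and then at 1.86, 2.38 and 0.773 CPM (log2 2.62 ± 0.49, adjusted p = 0.329). Il1b, the inflammasome cytokine, was at 8.71, 6.69 and 4.50 CPM and then at 18.8, 21.15 and 9.02 CPM (log2 1.28 ± 0.36, adjusted p = 0.659). Tnf was at 1.10, 1.03 and 0.729 CPM and then at 2.96, 2.61 and 1.39 CPM (log2 1.25 ± 0.34, adjusted p = 0.514). In these 3 genes the ages did not overlap, and 6-month mouse 3 was the lowest of the older mice. The median of the list was 0.06 without 6-month mouse 2, 0.10 without 3-month mouse 3, 0.34 without 3-month mouse 1, 0.39 without 6-month mouse 3 and 0.13 with the GC and length correction. The members above were transcripts of low level, while abundant members such as Cxcl15 (log2 -0.10) and Cxcl12 (log2 0.01) were near level. The single lower member was Tslp (log2 -0.47), a cytokine of barrier epithelium. Of 10 basophil and mast cell genes 8 were above 0, with a median of 0.26, 2 higher and 1 lower at an unadjusted p under 0.05, and 3 higher and 1 lower without overlap. The median was 0.42 without 3-month mouse 1, 0.16 without 6-month mouse 1, 0.16 with limma voom and 0.13 with a minimum mean of 1 CPM. Ms4a2, a chain of the IgE receptor, was at 0.526, 0.463 and 0.364 CPM and then at 1.35, 1.84 and 1.19 CPM (log2 1.66 ± 0.36, adjusted p = 0.339), and Cd200r3, a receptor of basophils, had log2 2.31 ± 0.53. Cxcl2, Ms4a2 and Cd200r3 passed the filter on low counts through the 6-month mice alone, so they were tested only because they were higher there. The lower member was Kit, the stem cell factor receptor, which lung endothelium also makes, at 192, 229.3 and 177.2 CPM and then at 148.3, 154.5 and 159.5 CPM (log2 -0.37 ± 0.12, adjusted p = 0.659).

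Among complement genes, C3 was at 802.9, 1122 and 1196 CPM and then at 1242, 1413 and 1614 CPM (log2 0.45 ± 0.16, adjusted p = 0.736). With C4b, it was 1 of 2 complement members at an unadjusted p under 0.05, both higher (3.12% over all genes), of 20 tested with a median of 0.04. Senescence and p53 target genes had a median of -0.001 over 18 members, with 4 higher and 2 lower at an unadjusted p under 0.05. Gdf15, a stress cytokine, was at 0.957, 0.926 and 0.668 CPM and then at 2.57, 1.78 and 1.44 CPM (log2 1.15 ± 0.33, adjusted p = 0.525). Cdkn2a, the p16 locus, was at 0.67, 0.926 and 1.15 CPM and then at 0.771, 1.49 and 0.927 CPM (log2 0.23 ± 0.37, adjusted p = 0.94), which overlapped. Cdkn1a, the p21 inhibitor, was at 87.7, 74.8 and 95.5 CPM and then at 73.4, 99.1 and 120.8 CPM (log2 0.19 ± 0.16, adjusted p = 0.922), which also overlapped.

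In the matrix, a few genes of each list had lower values at an unadjusted p under 0.05. Of 21 genes of fibrillar collagen and its crosslinking, these were Col3a1, Col5a2 and Lox, all without overlap, and 0 were higher. The median was -0.03, and it was -0.10 without 3-month mouse 1, -0.09 without 6-month mouse 2, 0.005 without 6-month mouse 1 and -0.11 with the GC and length correction. Lox, the oxidase that crosslinks collagen and elastin, was at 58.4, 71.5 and 69.7 CPM and then at 46.5, 42.2 and 54.7 CPM (log2 -0.47 ± 0.13, adjusted p = 0.513). Col1a1, the main chain of type I collagen, was at 279.4, 319.8 and 259.5 CPM and then at 249.8, 353.7 and 174.6 CPM (log2 -0.14 ± 0.22, adjusted p = 0.94), with both the highest and the lowest value among the older mice. Of 15 elastic fibre genes, 3 were lower and 2 higher at an unadjusted p under 0.05. Eln, the elastin precursor, was at 127.4, 134.4 and 124.1 CPM and then at 100.4, 98.7 and 116.4 CPM (log2 -0.29 ± 0.11, adjusted p = 0.794), without overlap. Ltbp2, a microfibril protein, was at 81.0, 90.6 and 70.8 CPM and then at 110.3, 166.2 and 103.1 CPM (log2 0.65 ± 0.17, adjusted p = 0.514), the reverse order. Basement membrane genes had a median of -0.14 over 20 members, with Nid1 and Sparc lower at an unadjusted p under 0.05 (2.52% over all genes). That median was -0.24 without 3-month mouse 1 and -0.02 without 3-month mouse 2.

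Cell cycle genes had lower values of small size. Of 30 tested members, 27 had fold changes below 0, the median was -0.18, and 4 were lower and 0 higher at an unadjusted p under 0.05. Mki67, a marker of dividing cells, was at 16.0, 22.2 and 24.7 CPM and then at 14.5, 13.4 and 15.7 CPM (log2 -0.53 ± 0.16, adjusted p = 0.595), with the younger mouse 1 just above the older mice. Rrm2, a subunit of the enzyme that makes deoxynucleotides, was at 9.24, 6.58 and 8.08 CPM and then at 5.20, 6.65 and 3.61 CPM (log2 -0.63 ± 0.22, adjusted p = 0.727), where mouse 2 of both ages was at the same level. The median was -0.11 without 6-month mouse 1 and -0.12 without 6-month mouse 3.

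Mesothelial genes, of the cells that line the lung surface, had a median of 0.34, and all 11 tested members were above 0, with 7 higher at an unadjusted p under 0.05 and 4 without overlap. Wt1, the factor that marks mesothelium, was at 2.68, 3.40 and 4.37 CPM and then at 8.48, 5.64 and 6.65 CPM (log2 1.00 ± 0.23, adjusted p = 0.339). Aldh1a2, which makes retinoic acid, was at 30.5, 28.8 and 35.4 CPM and then at 47.8, 39.3 and 50.4 CPM (log2 0.54 ± 0.13, adjusted p = 0.388). Neither gene overlapped between the ages. Msln, or mesothelin, was at 98.3, 93.3 and 125.2 CPM and then at 127.5, 108.8 and 135.7 CPM (log2 0.23 ± 0.14, adjusted p = 0.912), which overlapped. Genes of tissues next to the lung varied by mouse. The adipose list had a median of 0.76 over 15 members, 0.10 without 6-month mouse 1. Adipoq, the fat cell hormone adiponectin, was at 10.9, 8.23 and 10.3 CPM and then at 43.6, 12.8 and 6.49 CPM, so that 1 mouse carried the high value. Heart muscle genes had a median of 0.32 over 20 members, with 0 at an unadjusted p under 0.05, and the median was 0.04 without 6-month mouse 1, 0.14 without 3-month mouse 3, and 0.62 without 3-month mouse 1 or 6-month mouse 3. The mouse with the high adipose level, 6-month mouse 1, also had the highest summed level of immunoglobulin V segments and of mesothelial genes. The part that tissue at the lung surface played in these levels was not tested.

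Ciliated cell genes had a median of 0.16 over 21 members, with 19 above 0, 5 higher and 0 lower at an unadjusted p under 0.05, and 0.27 without 3-month mouse 3. Foxj1, the master factor of motile cilia, was at 134, 123.9 and 156.6 CPM and then at 169.1, 195.8 and 185.8 CPM (log2 0.41 ± 0.12, adjusted p = 0.567), without overlap. Wnt pathway genes had a median of 0.06 over 29 members, with 5 higher and 1 lower at an unadjusted p under 0.05. Sfrp2, a secreted Wnt modulator, was at 5.79, 8.23 and 8.44 CPM and then at 10.6, 9.03 and 10.3 CPM (log2 0.41 ± 0.18, adjusted p = 0.842), and the single lower member, the ligand Wnt5a, had log2 -0.40 ± 0.16. Of 21 cytochrome P450 and xenobiotic genes, 16 were above 0 and 4 below, with a median of 0.15. Without overlap there were 4 higher and 1 lower members (5.67% and 5.32% over all genes). At an unadjusted p under 0.05 there were 1 higher and 2 lower (3.12% and 2.52% over all genes). Of these, the higher one, Cyp2s1, was at 164.5, 195 and 222.9 CPM and then at 246, 261.9 and 269.2 CPM (log2 0.42 ± 0.13, adjusted p = 0.612), the opposite of Cyp1a1.

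Genes of the gas exchange surface differed by less than the spread between mice. Sftpc, the surfactant protein of type 2 cells, was at 21360, 15830 and 19180 CPM and then at 18490, 20960 and 20690 CPM (log2 0.09 ± 0.16, adjusted p = 0.94). Ager, of type 1 cells, had log2 0.09 ± 0.15 and Pecam1, of endothelium, log2 0.03 ± 0.12. The lists of type 2, type 1 and endothelial genes had medians of -0.03, -0.007 and -0.03 over 17, 18 and 22 members, with 0, 0 and 1 members at an unadjusted p under 0.05 (5.64% over all genes). Cytosolic ribosomal protein genes had a median of 0.09 over 77 members, 71 of them above 0 and 0 at an unadjusted p under 0.05, and 3-month mouse 1 had the highest median of the 6 mice. The ribosomal median was 0.24 without 3-month mouse 1 and -0.02 without 3-month mouse 2. The mitochondrially encoded share of reads was 1.83 ± 0.159% at 3 months and 2.01 ± 0.156% at 6 months (mean ± SD, n = 3, exact permutation test, two-sided, p = 0.3, where 0.1 is the smallest p possible). The GC content of genes, weighted by reads, was 50.2% and 50.4% (exact permutation test, n = 3, p = 0.3). GC content and gene length together accounted for 9.6% of the variance of the fold changes across genes. The tenth of genes lowest in GC had a median log2 fold change of -0.09 and the tenth highest in GC 0.13.

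Clock genes differed between mice of one age. Per2, a repressor of the clock, was at 69.2, 125.9 and 140.8 CPM and then at 63.0, 137.8 and 120.2 CPM (log2 -0.06 ± 0.40, adjusted p = 0.991). Arntl, the clock activator, was at 7.71, 5.92 and 5.77 CPM and then at 10.3, 4.51 and 7.47 CPM (log2 0.19 ± 0.26, adjusted p = 0.934). In both ages mouse 1 had the lowest Per2 and the highest Arntl. Nr1d1, a repressor that follows the day phase, was at 183.8, 233.3 and 200 CPM and then at 260.4, 338.7 and 227.9 CPM (log2 0.42 ± 0.15, adjusted p = 0.736). The clock hour of tissue collection was not given. The 2 clock lists had medians of 0.10 and 0.03.

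Of the 6 fits that left out 1 mouse, the one without 3-month mouse 1 moved the number of calls most. In that fit 17 genes were called, 3 higher and 14 lower, and 2810 of 15874 genes (17.7%) had an unadjusted p under 0.05, 8.19% higher and 9.51% lower. The 3 higher genes were Pcp4l1, Syt5 and Klf2, a shear-stress factor of endothelium (log2 0.75, adjusted p = 0.0474). The 14 lower genes included, chosen after their values were seen, Fzd4, a Wnt and norrin receptor of endothelium (log2 -0.83, adjusted p = 0.0156), Foxn3 (log2 -1.30, adjusted p = 0.00539) and Lama3, a laminin chain (log2 -0.66, adjusted p = 0.0474). Another was Col4a3, a basement membrane collagen, at 184.5, 366.8 and 357.2 CPM and then at 227.9, 175.6 and 231.6 CPM (log2 -0.77, adjusted p = 0.0474 without that mouse, and -0.52 ± 0.25 with it). For Col4a3 mouse 1 lay with the older mice and not with its own age. Col3a1 (log2 -0.67), Col5a2 (-0.64), Chia1 (1.03) and Nr4a1 (1.31) kept their direction without it. The younger mice left in that fit had a mean gene length, weighted by reads, of 3867 and 3794 bp, against 3598 to 3629 bp at 6 months. Col4a3 is 8554 bp long, and its log2 fold change over all 6 mice was -0.375 with the GC and length offset. The part of gene length in the calls without 3-month mouse 1 was not tested.

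The older mice of the study show where the levels stood later. These are CPM scaled over all 12 libraries, given as a description, and all comparisons with 3 months share the same 3 young mice. Col3a1 was at 447.4 ± 54.8, 281.9 ± 36.7, 172.4 ± 48.3 and 171.6 ± 24.6 CPM at 3, 6, 12 and 24 months (mean ± SD, n = 3). Col5a2 was at 89.2 ± 13.1, 59.3 ± 3.27, 30.3 ± 7.401 and 22.2 ± 2.21 CPM. Levels of both at 6 months lay between those at 3 and 12 months. Igj was at 8.84 ± 2.81, 38.0 ± 18.0, 128.8 ± 54.3 and 113.5 ± 40.3 CPM. Pcp4l1 was at 76.0 ± 11.7, 113.8 ± 1.46, 174.4 ± 21.0 and 314.7 ± 72.2 CPM, and Syt5 at 16.2 ± 3.04, 25.6 ± 1.67, 45.5 ± 7.91 and 82.4 ± 8.99 CPM. For these genes the level at 6 months lay above that at 3 months and below that at 12 months. Nr4a1 did not follow that order, with 36.6 ± 8.04, 88.6 ± 11.5, 67.6 ± 11.7 and 190.4 ± 51.4 CPM. Klf4 was at 163.7 ± 10.3, 229.6 ± 28.6, 113.6 ± 20.1 and 116.9 ± 30.7 CPM, and Egr2 at 5.18 ± 1.14, 9.97 ± 2.12, 5.91 ± 2.05 and 4.98 ± 1.20 CPM, both highest at 6 months. Wt1 was likewise highest at 6 months, with 3.00 ± 0.741, 5.95 ± 1.24, 2.99 ± 0.959 and 1.52 ± 0.844 CPM. Chia1 was highest at 12 months, with 65.6 ± 13.9, 121.9 ± 18.1, 212.3 ± 13.5 and 76.6 ± 14.1 CPM. The platelet gene Gp9 was at 11.8 ± 3.17, 6.52 ± 1.27, 9.38 ± 4.92 and 55.6 ± 38.3 CPM. The GC content of genes, weighted by reads, was 54.1 to 55.8% in the libraries of 24 months and 50.1 to 51.5% in the other 9, and its part in the levels at 24 months was not tested. The 12-month libraries differed too, with 50.4 to 51.5% GC against 50.1 to 50.3% at 3 months. Their mean gene length, weighted by reads, was 3116 to 3240 bp against 3428 to 3867 bp at 3 months. The part of either in the levels at 12 months was not tested.

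**Figure D5:**
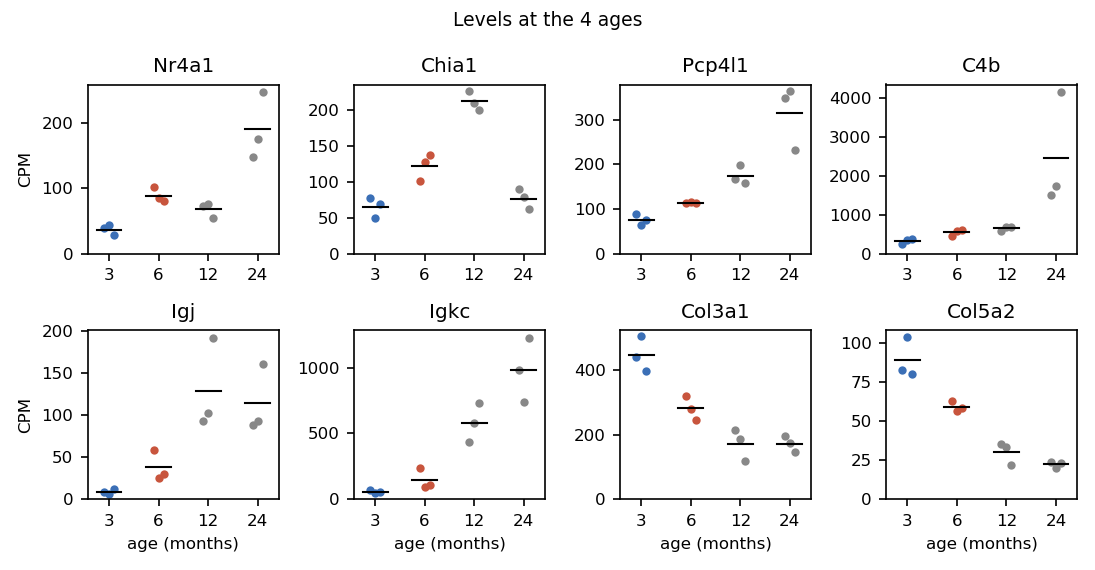
CPM of each mouse at 3, 6, 12 and 24 months for 8 genes, scaled over all 12 libraries, with a bar at the mean of 3 mice and the 3- and 6-month mice in blue and red. Col3a1 and Col5a2 are lower at 12 than at 6 months, Igj and Igkc higher, and Nr4a1 at 12 months lies between its levels at 3 and 6 months.

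The authors' deposited table of this comparison holds 20 genes of 15850 with an adjusted p under 0.05 (0.126%), 16 higher and 4 lower at 6 months. Among its leading genes were Nr4a1 (log2 0.89, adjusted p = 3.59e-10 in the authors' deposited table), Has1 (log2 0.74, adjusted p = 3.52e-06 in the same table) and Chia1 (log2 0.63, adjusted p = 0.00014). Its 4 lower genes were Col3a1 (log2 -0.50 in the authors' deposited table), Col5a2 (-0.45), Lcn2 (-0.42) and Itih4 (-0.39). The deposited fold changes were smaller in size than those of the edgeR fit for each of these 7 genes. The labels do not name the tool behind the deposited table.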

How the data were processed

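Poly(A) RNA-seq of mouse lung was analysed from the deposited table of 35275 genes. The labels give 3 separate mice per age. The tested values are counts per gene, 1 column for each mouse, as deposited by the authors. FPKM per library was deposited as well, per the file headers, and recomputed FPKM matched 235411 of 235411 values within 1e-06. The log2 fold changes and p-values of the authors' deposited comparison were only copied. The submitters' processing notes name TopHat, STAR 2.5, HTSeq 0.6.1 and mm10, with no roles. The sources used here give neither the strand setting nor how reads that match several genes were assigned.

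The 6 libraries of 3 and 6 months were filtered with filterByExpr, scaled with TMM and tested with the edgeR quasi-likelihood test (edgeR 4.0.16, limma 3.58.1, R 4.3.3), with p-values adjusted by Benjamini-Hochberg over the 15691 genes. The SE came from the fold change and its F statistic. The script was tested on simulated data. Genes named were those called and, up to 10 each way, those with the smallest p among genes of at least 1 CPM whose mice did not overlap (no V segments, numbered models, Riken clones or pseudogenes), from each described list at most 4 members by smallest p, and fixed genes. Further list members were named after their values were seen. The 66 gene lists and their members were chosen with earlier results of these data known. For the offset, GC content was read from the longest GENCODE M21 transcript, found for 97.8% of genes. A gene name shared by several of the IDs (126 IDs) was kept apart by ID. Alternatives were RLE size factors, DESeq2 1.42.0, limma voom, other filters, other sets of libraries, mouse number as a block, a GC and length offset (mgcv 1.9.3) and leaving out each mouse. Depth sets the precision of low genes, and 3 mice per age limit all tests.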

Additional observations from a re-analysis of the deposited data

How the results depend on the processing

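Against the 1 gene called, DESeq2 called 23 genes and no filter on low counts 56. The count was 0 with the GC and length offset (1139 genes at an unadjusted p under 0.05), with all 12 libraries (267), with 9 libraries (506), with limma voom (857) and with a mean of at least 1 CPM (816), and 0 to 17 with each mouse left out, 17 without 3-month mouse 1 and 0 without 6-month mouse 2 (591 at an unadjusted p under 0.05). Members of the gene lists called numbered 1, against 17 with DESeq2, 30 with no filter, 0 with the offset, all 12 libraries, 9 libraries, limma voom or a mean of at least 1 CPM, and 0 to 4 with each mouse left out.

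Mouse numbers are not a stated pairing. The residual correlation of same-numbered mice was 0.129, 0.089 and 0.204, and -0.128 to -0.003 for the other pairs, so that each mouse correlated best with its own number, a hint from the data and not the design. Levels were centred within each age, so positive values for same-numbered mice bring negative values for the other pairs. The negative values are therefore not separate evidence. With mouse number as a replicate block 59 genes and 38 list members were called, and with the block and the GC and length offset together 59 and 31.

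Of 2219 values for 139 named genes under other settings, 2063 kept direction and side of the threshold, 126 (47 genes) passed it newly, 7 (Nr4a1) lost it, and 23 (12 genes, none called) changed sign. With the offset, Ager had log2 -0.011 (-0.009 with the block as well), Scgb1a1 -0.007 (-0.015) and Dbp -0.012 (-0.022), and with all 12 libraries Acta2 had -0.003. With each mouse left out in turn, the log2 fold change ranged across 0 in Cxcr5 from -0.049 to 0.59, Clock from -0.229 to 0.015, Sftpc from -0.009 to 0.195, Ager from -0.005 to 0.194, Pecam1 from -0.01 to 0.069, Acta2 from -0.188 to 0.33, Col1a1 from -0.432 to 0.076, Cdkn2a from -0.087 to 0.42, Dbp from -0.107 to 0.233, Per2 from -0.315 to 0.212 and Arntl from -0.099 to 0.449. Of 1056 list medians under other settings, 37 moved beyond the spread between mice and 80 changed sign, 0 of them in the lists with a median beyond 0.3. With each mouse left out, medians of lists near 0 ranged from -0.094 to 0.211 and -0.062 to 0.139 for the clock repressor and activator lists, 0.002 to 0.125 for complement, -0.029 to 0.089 for senescence, 0.017 to 0.158 for Wnt, -0.168 to 0.084 for elastic fibre, -0.119 to -0.003 for alveolar macrophage, and -0.058 to 0.022, -0.026 to 0.033 and -0.084 to 0.076 for type 2, type 1 and endothelial genes. The difference in mitochondrial share, 0.18 percentage points, was 0.09 to 0.267 with each mouse left out. Depth of 15.3 to 20.9 M reads leaves genes near 1 CPM at few reads.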

Other observations

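None of the following genes passed the edgeR test. The MHC class II gene H2-Ab1 had log2 0.34 and H2-DMb1, which loads peptides, 0.33. Siglech, of plasmacytoid dendritic cells, had log2 0.62 and Clec9a, of cross-presenting dendritic cells, -0.34. Over 19 dendritic cell and class II genes the median was 0.14, with 2 higher and 1 lower at an unadjusted p under 0.05 (3.12% and 2.52% over all genes). Without overlap there were 0 higher and 1 lower members (5.67% and 5.32% over all genes). The median was 0.22 and 0.25 without 3-month or 6-month mouse 1. Alveolar macrophage genes had a median of -0.05 over 19 members, with Mrc1, the mannose receptor, at -0.35 and 3 lower and 0 higher at an unadjusted p under 0.05. Splicing factor genes were lower in summed level in each 6-month mouse, 4916, 4321 and 5170 CPM against 5465, 5188 and 5278 CPM, with a median of -0.16 over 26 members that was -0.08 with the GC and length offset and -0.09 without 6-month mouse 2.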
